A study of Mus musculus with 23 samples.

Results

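The genes that encode the proteasome, the particle that degrades ubiquitin-tagged proteins, were followed along mouse oocyte development in culture and in the animal. They were chosen by name, as every symbol that starts with Psma to Psmg followed by a digit and does not contain -ps. The rule found 50 of the 22784 genes in the deposited table, and 48 of the 50 reached 1 FPKM (fragments per kilobase of transcript, scaled to library size) in at least 1 group. By role they comprised 7 alpha-ring genes of the 20S core, the germ cell alpha gene Psma8, 7 standard beta-ring genes, 4 immunoproteasome and thymoproteasome genes, 6 ATPase and 11 non-ATPase genes of the 19S cap, 3 cap chaperones, 4 core chaperones, 4 activators and the inhibitor Psmf1. The last 2 symbols were Psme2b, a near-identical copy of Psme2, and Psmc3ip. Psmc3ip matches the rule by name and encodes no proteasome subunit, but a partner of the meiotic recombinases.

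The libraries were made from poly(A)+ RNA of 23 samples, 14 from culture and 9 from animals, that form 8 groups. The culture route started from female embryonic stem (ES) cells of the cross C57BL/6 X 129, kept in 2i+LIF. From these, cells resembling primordial germ cells (PGCLCs) were induced for 6 days and sorted, and PGCLCs were mixed with female gonadal somatic cells of E12.5 for 3 days. From such mixtures came oocytes of secondary follicles after 21 days, with the oestrogen receptor antagonist ICI182780 in the medium for part of that time. After 11 days of follicle culture with FSH and, at first, BMP15 and GDF9, and 16 hours of maturation with FSH, EGF and hCG, oocytes at metaphase II (MII) were collected. The animal route was from B6D2F1 mice and comprised E12.5 primordial germ cells (PGCs) and oocytes of secondary follicles at postnatal day 8, both sorted by the BVSC transgenes, and MII oocytes of females aged 8 weeks. Day 6 PGCLCs had 2 samples and each of the other 7 groups had 3. The oocytes of every stage on the culture route had grown with somatic cells from embryos, and strain and route cannot be told apart. The labels give 10000 to 13200 cells a sample for ES cells, 10000 for day 6 PGCLCs, 5300 to 15000 for reaggregated PGCLCs, 337 to 812 oocytes for secondary follicles and 99 to 134 for MII.

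The 26S proteasome is a hollow 20S barrel with a 19S cap on one or both ends. The outer alpha rings of the barrel gate the entry of substrates, and the inner beta rings carry the proteolytic sites. The cap holds a ring of ATPases that unfold substrates, and non-ATPase subunits that bind ubiquitin chains and cleave them off. In most cells the subunits are produced in balance, and dedicated chaperones put the rings together. In oocytes, growth stores RNA and protein for the embryo, and the meiotic divisions run through timed destruction of cyclin B1 and securin by the proteasome while transcription is silent.

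The deposited table gives 1 FPKM value per gene and group, so neither the spread between samples nor a test can be had, and every difference below is a description of these group values. Values are listed in a fixed order. For the culture route the order is ES cells, day 6 PGCLCs, reaggregated PGCLCs, secondary follicle oocytes and MII oocytes, and for the animal route E12.5 PGCs, secondary follicle oocytes and MII oocytes. Differences between groups are on the scale log2(FPKM + 1), which understates the change of genes of low level, and a gene is called higher or lower at a difference of 1 or more, that is 2-fold on this scale. The table holds no counts, so the depth of the libraries is unknown. In bulk RNA, fewer cells of a type and less RNA per cell cannot be told apart. FPKM is a share of each library: the summed FPKM of all genes ran from 268720 to 349772 in the 6 groups before MII, and was 616260 in cultured and 975407 in animal MII oocytes. The oocyte marker genes Zp1, Zp2, Zp3, Gdf9, Bmp15, Nobox and Figla summed to between 9521 and 15065 FPKM in the 4 oocyte groups and to at most 8.50 FPKM in the other 4. Granulosa cell markers (Foxl2, Amh, Fshr, Amhr2, Inha and Fst) summed to 5.11 and 25.0 FPKM in cultured secondary follicle and MII oocytes, and to 6.29 and 5.41 FPKM in those of the animal. Fshr was at 0 in both MII groups. Of the 25.0 FPKM, Inha gave 19.3. Rps27a, a ribosomal protein gene that every cell uses, was listed at 0 in both MII groups, so a gene at 0 in this table is only said to be listed there.

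The standard 26S genes are the 14 core and 17 cap genes of the particle found in most cells. Their median was 111 FPKM in ES cells and 108 FPKM in day 6 PGCLCs, between 73.1 and 81.2 FPKM in the secondary follicle oocytes of both routes, E12.5 PGCs and reaggregated PGCLCs, and 18.2 FPKM in cultured and 11.2 FPKM in animal MII oocytes. Their summed FPKM was 1.18% of all FPKM in ES cells, 1.27% in day 6 PGCLCs, 1.14% in reaggregated PGCLCs, 0.762% in cultured secondary follicle oocytes and 0.300% in cultured MII oocytes. Along the animal route the share was 1.17%, 0.709% and 0.224%. The sum itself differed less between secondary follicle and MII oocytes, at 2479 and 2183 FPKM in the animal and 2662 and 1846 FPKM in culture. Of the 2183 FPKM, Psma2 gave 718 and Psmd3 gave 611. Subunits also differed more from each other at the later stages. The SD over the 31 genes of log2(FPKM + 1) was 1.01 in ES cells, 1.09 in day 6 PGCLCs, 1.05 in reaggregated PGCLCs, 1.45 in cultured secondary follicle oocytes and 1.99 in cultured MII oocytes. On the animal side it was 1.10, 1.37 and 2.48. Of the 31 genes, 20 had their lowest value of all groups in animal MII oocytes, and 3 had their highest value there.

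**Figure D1:**
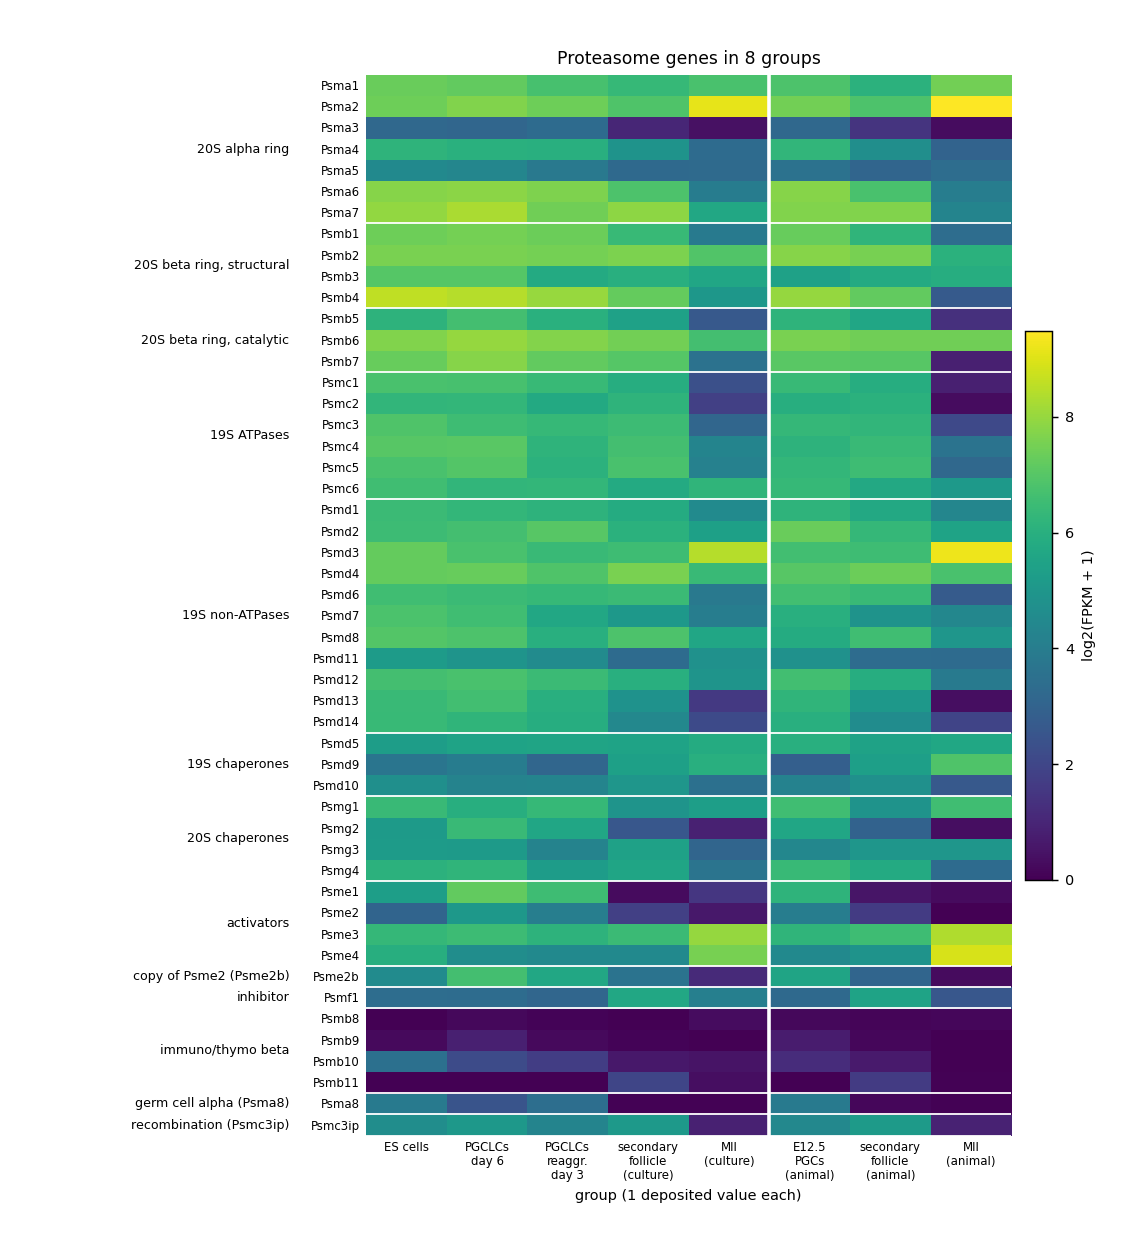
Levels of the 50 genes, as log2(FPKM + 1) by colour, in the 8 groups from left to right (5 of the culture route, then 3 of the animal route), with 1 deposited value per group. Rows are grouped by role; most core and cap rows are darkest at MII, while Psma2, Psmd3, Psme3 and Psme4 are brightest there.

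**Figure D2:**
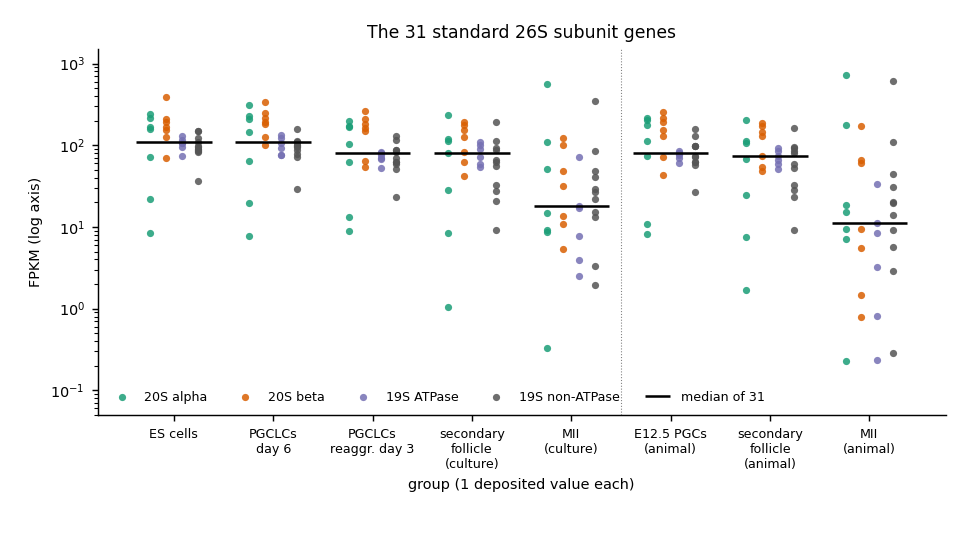
Levels of the 31 standard 26S genes in the 8 groups on a log axis of FPKM, 1 point per gene, with the median of each group. The median FPKM goes from 111 in ES cells to 18.2 in cultured and 11.2 in animal MII oocytes, and the points spread apart at MII.

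The alpha ring of the core split at MII. Psma2 was the highest of the 7 alpha genes there, and Psma3, Psma4, Psma6 and Psma7 had their lowest values. Psma2 had 166, 207, 169, 118 and 569 FPKM along the culture route and 176, 114 and 718 FPKM along the animal route. Psma6 had 217, 229, 199, 113 and 14.9 FPKM along the culture route and 215, 106 and 15.3 FPKM along the animal route. Psma7 had 244, 314, 172, 234 and 50.8 FPKM along the culture route and 206, 204 and 18.4 FPKM along the animal route. Psma2 was thus highest in the MII groups of both routes, whereas Psma6 and Psma7 had their lowest values there. Psma1 lay at 157, 145, 105, 81.0 and 109 FPKM along the culture route and 112, 68.0 and 176 FPKM along the animal route. Its value in animal MII oocytes was above its value in secondary follicle oocytes by 1.36 on the log2 scale, but this difference became -0.13 after quantile normalization and -0.11 after scaling the groups to equal sums. The other alpha genes were lower at every stage. Psma4 had 70.9, 63.6, 62.5, 28.6 and 9.09 FPKM along the culture route and 74.7, 24.6 and 7.16 FPKM along the animal route. Psma3 had 8.33, 7.76, 8.85, 1.04 and 0.330 FPKM along the culture route and 8.14, 1.71 and 0.2300 FPKM along the animal route. Psma5 had 21.9, 19.6, 13.4, 8.39 and 8.63 FPKM along the culture route and 10.8, 7.47 and 9.56 FPKM along the animal route. All 3 have pseudogene copies in the genome that are at least 95% identical to their coding sequence, up to 100% for Psma3 (Gm13835), so their low values are uncertain where reads were shared with the copies.

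The inner beta rings are built from 4 structural and 3 catalytic subunits, and within both kinds the levels at MII differed widely. Among the structural genes, Psmb4 had 384, 340.5, 259.6, 153 and 31.5 FPKM along the culture route and 255, 146 and 5.49 FPKM along the animal route. Psmb1 had 167, 182, 163, 82.1 and 13.8 FPKM along the culture route and 155, 73.1 and 9.51 FPKM along the animal route. Both were lowest in the 2 MII groups, Psmb4 26.7-fold below secondary follicle oocytes in the animal and 4.84-fold below in culture. Psmb2 had 189.8, 193, 182, 193 and 121 FPKM along the culture route and 215, 186 and 65.1 FPKM along the animal route. Psmb3 had 126, 125, 54.8, 62.1 and 48.5 FPKM along the culture route and 42.7, 54.4 and 59.9 FPKM along the animal route. Psmb2 was called lower at MII in the animal (-1.50 on the log2 scale) and not in culture (-0.67). Psmb3 was called on neither route (0.14 in the animal and -0.35 in culture), but was lower on both with equal sums (-1.31 in the animal and -1.15 in culture), and it has 3 pseudogene copies of at least 95% identity. Of the catalytic genes, Psmb5 carries the chymotrypsin-like site, Psmb6 the caspase-like site and Psmb7 the trypsin-like site. Psmb5 had 70.1, 100.0, 63.3, 42.0 and 5.32 FPKM along the culture route and 70.9, 48.00 and 1.46 FPKM along the animal route. It has 1 pseudogene copy of at least 95% identity and shares exon sequence with Mir686 on its own strand. Psmb6 had 207, 250.2, 211, 176 and 101 FPKM along the culture route and 192, 169.6 and 172 FPKM along the animal route. Psmb7 had 154, 215, 148, 128 and 10.8 FPKM along the culture route and 131, 129 and 0.788 FPKM along the animal route. In ES cells the ratio of the highest to the lowest of the 7 beta genes was 5.48, and in animal MII oocytes, where Psmb6 was highest and Psmb7 lowest, it was 219. In cultured MII oocytes it was 22.8. Psmb7 lies on chromosome 2 (chr2:38588036-38644087, minus strand, mm10) and shares exon sequence with Nek6 on the other strand.

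Interferon exchanges the catalytic subunits for Psmb8, Psmb9 and Psmb10 in the immunoproteasome, and the cortical epithelium of the thymus uses Psmb11 in place of Psmb5. Psmb8 was at most 0.259 FPKM and Psmb9 at most 0.799 FPKM in any group, and neither reached the filter of 1 FPKM. Psmb10 had 10.2, 3.49, 2.30, 0.515 and 0.402 FPKM along the culture route and 1.31, 0.603 and 0 FPKM along the animal route. It was highest in ES cells, at 6.63% of the level of Psmb7. Psmb11 had 0, 0.00970, 0.00492, 2.96 and 0.276 FPKM along the culture route and 0.0105, 2.13 and 0.0413 FPKM along the animal route. Secondary follicle oocytes were thus the only groups of the 8 in which Psmb11 passed 1 FPKM, and it stood there at 7.06% of Psmb5 in culture and at 4.43% in the animal. Psmb5 and Psmb11 are neighbours on chromosome 14, 3410 bases apart and read outwards, Psmb5 on the minus strand (chr14:54614119-54618022) and Psmb11 on the plus strand (chr14:54621433-54629556). These bounds and the distance are those of the GENCODE genes. The 250 bases before each RefSeq start are printed because the neighbours were highest in different groups. The RefSeq starts of both lie inside the GENCODE genes. The window of Psmb11 is therefore not upstream of the GENCODE start. In the window of Psmb5 the part from 54617996 to 54618022 is not upstream of it either. The sequences are from RefSeq (GRCm38.p6), 5′ to 3′ on the strand of the gene, chr14:54617996-54618245 for Psmb5 and chr14:54625060-54625309 for Psmb11. Capitals mark matches to the antioxidant response element TGANNNNGC, which binds the proteasome gene activator Nfe2l1, on either strand, and to the CCAAT box, CCAAT.
Psmb5: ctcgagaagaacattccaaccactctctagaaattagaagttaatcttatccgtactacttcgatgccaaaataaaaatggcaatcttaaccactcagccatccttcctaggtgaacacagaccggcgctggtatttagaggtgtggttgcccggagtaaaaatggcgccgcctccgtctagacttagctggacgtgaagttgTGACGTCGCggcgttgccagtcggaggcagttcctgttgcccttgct
Psmb11: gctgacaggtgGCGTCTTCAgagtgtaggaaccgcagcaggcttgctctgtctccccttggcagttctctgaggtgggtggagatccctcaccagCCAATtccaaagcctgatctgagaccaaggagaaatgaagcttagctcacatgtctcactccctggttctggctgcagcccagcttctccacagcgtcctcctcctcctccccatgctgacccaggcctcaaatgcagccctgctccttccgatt
Both windows hold 1 match to TGANNNNGC, and a CCAAT match is in the window of Psmb11 only. The element is frequent by its letters alone: it was in 42.9% of the 13628 promoters of tested genes.

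The ATPase genes had like levels until MII and unlike levels there. The 6 genes lay within 1.98-fold of each other in each of the 6 groups before MII, and the ratio of highest to lowest was 28.8 in cultured and 144 in animal MII oocytes. Psmc2 was lowest and Psmc6 highest in both. Psmc2 had 74.5, 76.2, 52.9, 71.1 and 2.50 FPKM along the culture route and 60.7, 65.4 and 0.233 FPKM along the animal route. Psmc1 had 107, 105, 83.4, 58.7 and 3.99 FPKM along the culture route and 84.2, 59.0 and 0.803 FPKM along the animal route. Psmc3 had 117, 91.7, 80.0, 88.8 and 7.67 FPKM along the culture route and 79.3, 74.4 and 3.27 FPKM along the animal route. These 3 were the lowest ATPase genes in both MII groups. Psmc4 had 128, 132, 70.4, 99.4 and 18.2 FPKM along the culture route and 70.0, 85.8 and 11.2 FPKM along the animal route. Psmc5 had 107, 122, 66.9, 108 and 16.9 FPKM along the culture route and 76.0, 92.4 and 8.34 FPKM along the animal route. Psmc6 had 95.1, 75.6, 76.3, 54.7 and 72.1 FPKM along the culture route and 81.2, 51.5 and 33.7 FPKM along the animal route. In deposited FPKM, Psmc6 lay within 1.53-fold between secondary follicle and MII oocytes on both routes. The summed FPKM of all genes was higher at MII, so this closeness depends on the scale. The other 5 ATPase genes were called lower at MII on both routes. Psmc1 has 2 copies of at least 95% identity, and Psmc3 overlaps Slc39a13 on the other strand. The promoter of Psmc2 (RefSeq, GRCm38.p6, chr5:21785025-21785274, plus strand, the first of 2 entries) is printed as that of the ATPase gene with the lowest MII value, with matches to the ETS core CCGGAAG and to CCAAT on either strand in capitals.
Psmc2: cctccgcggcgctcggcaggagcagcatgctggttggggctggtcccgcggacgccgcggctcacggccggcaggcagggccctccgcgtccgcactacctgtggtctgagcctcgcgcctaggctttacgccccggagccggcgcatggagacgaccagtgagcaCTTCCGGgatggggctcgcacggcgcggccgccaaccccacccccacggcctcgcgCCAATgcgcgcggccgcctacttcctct
It holds 1 match to each. The ETS core was in 40.7% of 27 promoters of standard 26S genes, in 35.6% of 45 promoters of all 42 matched genes and in 15.8% of the promoters of tested genes.

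At MII the non-ATPase genes of the cap ran from Psmd3, the second highest gene of the family, down to Psmd13. Psmd3, a lid subunit, had 151, 108, 86.3, 92.1 and 344 FPKM along the culture route and 96.9, 92.5 and 611 FPKM along the animal route. Psmd13, another lid subunit, had 84.4, 98.1, 63.2, 27.5 and 1.95 FPKM along the culture route and 73.5, 32.2 and 0.289 FPKM along the animal route. Psmd14, the enzyme that cuts ubiquitin chains from the substrate, had 82.8, 72.6, 58.6, 20.8 and 3.37 FPKM along the culture route and 61.9, 23.2 and 2.85 FPKM along the animal route. The ratio of the highest to the lowest non-ATPase gene was 4.17 in ES cells. At MII, where it was that of Psmd3 to Psmd13, it was 176 in culture and 2116 in the animal. Psmd7, the partner of Psmd14 in the lid, had 111, 95.01, 51.3, 32.4 and 15.4 FPKM along the culture route and 62.3, 28.0 and 19.9 FPKM along the animal route. Psmd4, a ubiquitin receptor, had 149.6, 156, 117, 193 and 86.0 FPKM along the culture route and 128, 161 and 108 FPKM along the animal route. Psmd2, a large scaffold subunit that receives shuttle factors, had 90.9, 101, 129, 66.2 and 41.2 FPKM along the culture route and 159.8, 79.4 and 44.6 FPKM along the animal route. Psmd4 and Psmd2 held between 41.2 and 193 FPKM in every group. Psmd8 had 122, 113, 63.1, 114 and 48.6 FPKM along the culture route and 56.8, 95.9 and 30.8 FPKM along the animal route. Psmd11 had 36.2, 29.4, 23.1, 9.05 and 26.5 FPKM along the culture route and 26.7, 9.22 and 9.06 FPKM along the animal route. Psmd11 was the only standard 26S gene called higher at MII in culture and not in the animal, where it differed by -0.02, and it has 2 copies of at least 95% identity. The other 3, Psmd1, Psmd6 and Psmd12, had 52.4 to 109 FPKM before MII. Psmd6 was the lowest of them at MII, at 13.4 FPKM in culture and 5.68 FPKM in the animal. Psmd13 overlaps Sirt3 on the other strand and Psmd3 overlaps Gm12356. Psmd2 has 1 pseudogene copy of at least 95% identity.

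Chaperones of the cap bind ATPase subunits before the ring closes. Psmd9 had 11.9, 14.9, 7.70, 40.8 and 62.4 FPKM along the culture route and 6.41, 39.5 and 117 FPKM along the animal route. Psmd5 had 38.3, 44.0, 45.2, 43.9 and 56.5 FPKM along the culture route and 63.1, 42.8 and 49.6 FPKM along the animal route. Psmd10, also known as gankyrin, had 25.5, 17.9, 18.4, 30.5 and 10.3 FPKM along the culture route and 17.4, 25.9 and 5.34 FPKM along the animal route. Psmd9 was thus at 39.5 FPKM or more in the 4 oocyte groups and at 14.9 FPKM or less in the other 4. Without rescaling of the groups, Psmd5 varied least of all 48 genes that passed the filter. Its range over the 8 groups was 0.71 on the log2 scale. Psmd10 was lowest at MII.

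Chaperones of the core work as 2 pairs that order the alpha ring, Psmg1 with Psmg2 and Psmg3 with Psmg4. Psmg1 had 84.4, 60.2, 80.9, 29.5 and 39.2 FPKM along the culture route and 94.96, 28.0 and 95.5 FPKM along the animal route. Psmg2 had 35.1, 85.7, 48.5, 4.91 and 0.850 FPKM along the culture route and 47.6, 6.86 and 0.288 FPKM along the animal route. The partners parted at the oocyte stages: the range over 8 groups was 1.73 on the log2 scale for Psmg1 and 6.07 for Psmg2, the latter with its lowest values at MII. Psmg3 had 35.8, 34.6, 17.9, 42.6 and 7.58 FPKM along the culture route and 20.2, 30.9 and 30.7 FPKM along the animal route. Psmg4 had 68.1, 72.2, 36.6, 47.1 and 11.7 FPKM along the culture route and 82.9, 55.0 and 8.99 FPKM along the animal route. Psmg3 and Psmg4 were both low in cultured MII oocytes, while in animal MII oocytes only Psmg4 was. Psmg3 shares exons on its own strand with Gm26938, so its level may hold reads of that gene.

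Activators open the barrel without ubiquitin. Psme1 and Psme2 form the interferon-inducible cap PA28, Psme3 forms a nuclear relative of it, and Psme4 encodes the large activator PA200. Psme1 had 39.1, 148, 91.2, 0.224 and 1.82 FPKM along the culture route and 71.7, 0.454 and 0.219 FPKM along the animal route. Psme2 had 7.27, 32.3, 15.6, 2.50 and 0.539 FPKM along the culture route and 15.4, 2.18 and 0 FPKM along the animal route. Its copy Psme2b had 22.8, 98.6, 50.9, 11.2 and 1.20 FPKM along the culture route and 45.6, 7.46 and 0.215 FPKM along the animal route. All 3 were highest in day 6 PGCLCs and lower in every oocyte group than in any earlier group. Psme2 and Psme2b are over 99% identical in coding sequence, so the split of reads between them is uncertain. Psme1 (chr14:55578123-55581529, plus strand) and Psme2 (chr14:55587441-55591113, minus strand) are 5911 bases apart. Psme3 had 78.7, 90.3, 69.0, 86.9 and 251 FPKM along the culture route and 72.6, 92.9 and 324 FPKM along the animal route. Psme4 had 60.8, 24.2, 21.5, 21.8 and 188 FPKM along the culture route and 21.9, 28.6 and 483 FPKM along the animal route. These 2 were highest in the MII groups, and Psme4 was 16.9-fold higher in MII than in secondary follicle oocytes of the animal and 8.60-fold higher in culture. The ratio of Psme3 to Psme1 was between 0.609 and 2.02 in the 4 groups before follicle growth, while in the 4 oocyte groups Psme3 was at 86.9 FPKM or more and Psme1 at 1.82 FPKM or less. The promoter of Psme4 (RefSeq, GRCm38.p6, chr11:30771525-30771774, plus strand) is printed to set beside that of Psmc2, since these genes differed in opposite directions between secondary follicle and MII oocytes.
Psme4: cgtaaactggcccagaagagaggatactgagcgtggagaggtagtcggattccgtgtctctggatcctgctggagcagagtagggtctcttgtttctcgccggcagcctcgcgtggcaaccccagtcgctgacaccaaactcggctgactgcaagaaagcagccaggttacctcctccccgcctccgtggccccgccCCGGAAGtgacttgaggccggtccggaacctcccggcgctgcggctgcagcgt
Capitals mark 1 match to the ETS core, on the strand of the gene, where the match of Psmc2 is on the other strand. The end of the Psme4 window lies inside the GENCODE gene, which starts at 30771726.

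Psmf1, named for its inhibition of the core in the test tube, had 9.44, 9.28, 7.72, 50.6 and 16.2 FPKM along the culture route and 8.52, 44.4 and 4.98 FPKM along the animal route. It was highest in the secondary follicle oocytes of both routes. There it was 6.56-fold above reaggregated PGCLCs and 5.21-fold above E12.5 PGCs.

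**Figure D3:**
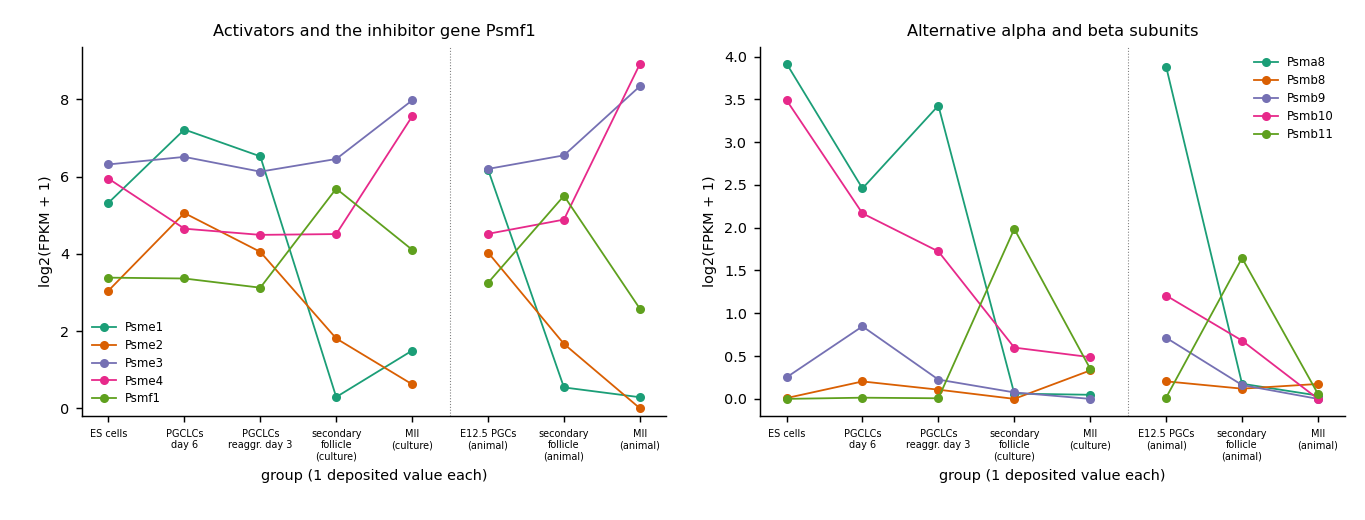
Levels of the activators Psme1 to Psme4 and of Psmf1 (left), and of the alternative subunits Psma8 and Psmb8 to Psmb11 (right), on the log2(FPKM + 1) axis in the 8 groups; lines join the groups of a route and each point is 1 deposited value. Psme1 is at 148 FPKM in day 6 PGCLCs and 0.224 FPKM in cultured secondary follicle oocytes, Psme4 is highest at MII, and Psmf1 and Psmb11 are highest in secondary follicle oocytes.

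Psma8 encodes an alpha subunit that takes the place of Psma7 in spermatocytes. It had 14.1, 4.497, 9.75, 0.0438 and 0.0338 FPKM along the culture route and 13.7, 0.130 and 0.0273 FPKM along the animal route. In ES cells it was 5.79% of Psma7. The share was 6.68% in E12.5 PGCs, 5.66% in reaggregated PGCLCs and at most 0.148% in the 4 oocyte groups. Psmc3ip, the recombination factor, had 24.3, 32.7, 18.5, 33.0 and 0.822 FPKM along the culture route and 20.6, 35.0 and 0.895 FPKM along the animal route. It kept at least 18.5 FPKM through secondary follicles and was under 1 FPKM in both MII groups, and it overlaps Mlx on the other strand.

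The stage-matched comparisons ask how far the products of culture resemble the cells of the animal. Between reaggregated PGCLCs and the E12.5 germ cells 1 of the 48 genes was called: Psmg4 was lower in culture by 1.16 on the log2 scale (36.6 against 82.9 FPKM), and none was higher. Over all 14242 genes tested, 1.39% were higher and 0.786% lower. Such shares of all tested genes are given below as the background. The median difference of the 48 was -0.08, beside 0.00 for all genes. Secondary follicle oocytes of the 2 routes differed in none of the 48, with differences from -0.41 (Psma3) to 0.52 (Psme2b), where 1.74% of all genes were higher and 0.66% lower in culture. The 31 standard genes differed there by a median of 0.09.

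At MII the routes parted. In cultured MII oocytes 13 of the 48 genes were higher than in animal MII oocytes (27.1%, background 12.4%) and 3 were lower (6.25%, background 9.45%). The 13 comprised 4 core genes (Psmb7, Psmb4, Psma7 and Psmb5), 4 ATPases (Psmc2, Psmc1, Psmc6 and Psmc3), 3 non-ATPases (Psmd11, Psmd13 and Psmd6), the activator Psme1 and Psmf1. The largest differences were those of Psmb7, 2.73 on the log2 scale (10.8 against 0.788 FPKM), and Psmb4, 2.33 (31.5 against 5.49 FPKM). The 3 lower genes were the chaperones Psmg3 at -1.88 and Psmg1 at -1.26, and the activator Psme4 at -1.36. Of the 31 standard 26S genes 11 were higher and none lower, with a median of 0.64, where the median of all genes was 0.01. The counts moved with the scale: 20 were higher and 1 lower when the groups were set to equal sums, 8 and 1 after quantile normalization, 5 and 3 with a pseudocount of 5 FPKM, and 20 and 3 with one of 0.1 FPKM. The summed granulosa markers were 25.0 FPKM in cultured and 5.41 FPKM in animal MII oocytes. Of the 5 that passed the filter only Inha was called, at 19.3 against 2.55 FPKM. Of the 7 oocyte markers, Zp1 (3.39), Zp2 (3.64), Zp3 (3.19) and Nobox (1.75) were called higher in culture and none lower. The part of either list in this comparison was not tested.

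During oocyte growth, from germ cells to secondary follicles, no standard 26S gene was called higher, and 5 of 31 in culture and 8 of 31 in the animal were called lower. In culture 4 of the 48 were higher (background 25.2%) and 12 lower (background 26.4%), with a median of -0.34 beside -0.09 for all genes. In the animal 3 were higher (background 24.3%) and 14 lower (background 25.9%), with a median of -0.52 beside -0.09. The routes share no sample here, and 3 genes were higher on both, namely Psmb11, Psmd9 and Psmf1, which is 6.25% of the 48 where 21.6% of all genes were higher on both. The 11 genes lower on both (22.9%, against 22.0% of all genes) were Psme1, Psme2, Psme2b, Psma8, Psmg1, Psmg2, Psma3, Psma4, Psmd11, Psmd13 and Psmd14. The differences of Psme1 were the largest, -6.23 in culture and -5.64 in the animal. None of the 6 ATPase genes was called on either route.

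From secondary follicle to MII oocytes most of the family was lower, and a small number of genes was higher. In culture 6 of the 48 were higher (background 23.9%) and 29 lower (background 28.6%), with a median of -1.26, beside -0.08 for all genes. In the animal 7 were higher (background 28%) and 28 lower (background 33.1%), with a median of -1.60, beside -0.09. On both routes 26 genes were lower (54.2%, against 26.1% of all genes) and 4 were higher (8.33%, against 21.8%). None was called in opposite directions and 10 were called on 1 route. Of all 14242 genes tested, 7 were called in opposite directions and 2542 on 1 route. The 26 held 18 of the 31 standard genes: Psma4, Psma6 and Psma7, Psmb1, Psmb4, Psmb5 and Psmb7, 5 of the 6 ATPases, and Psmd1, Psmd6, Psmd8, Psmd12, Psmd13 and Psmd14. The others were Psmb11, Psmd10, Psmg2, Psmg4, Psme2, Psme2b, Psmf1 and Psmc3ip. In the animal the largest differences were those of Psmb7 (-6.19, and -3.44 in culture), Psmc2 (-5.75, and -4.36) and Psmc1 (-5.06, and -3.58). In culture they were those of Psmc2 and of the recombination factor Psmc3ip (-4.22, and -4.25 in the animal). Of the 31 standard genes 3 were higher and 20 lower on each route.

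The 4 genes higher at MII on both routes were Psme4 (3.05 in culture and 4.03 in the animal), Psma2 (2.26 and 2.65), Psmd3 (1.89 and 2.71) and Psme3 (1.52 and 1.79). Their differences stayed above 0 under every scaling tried. After quantile normalization Psme4 alone passed 2-fold in the animal, at 2.43, where Psma2 was at 0.79, Psmd3 at 0.86 and Psme3 at 0.07. In culture Psmd3 (0.81) and Psme3 (0.42) were no longer called after it. With equal sums Psme3 was called on neither route (0.71 in culture and 0.32 in the animal). Quantile normalization took the split in the animal from 7 higher and 28 lower to 1 and 31. With equal sums it was 3 and 37, and in culture 3 and 33. Summed FPKM over all genes was highest in the 2 MII groups, as given above. Since libraries were made from poly(A)+ RNA, the values of stored messages depend on their tails as well as on their number, and these cannot be told apart here.

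**Figure D4:**
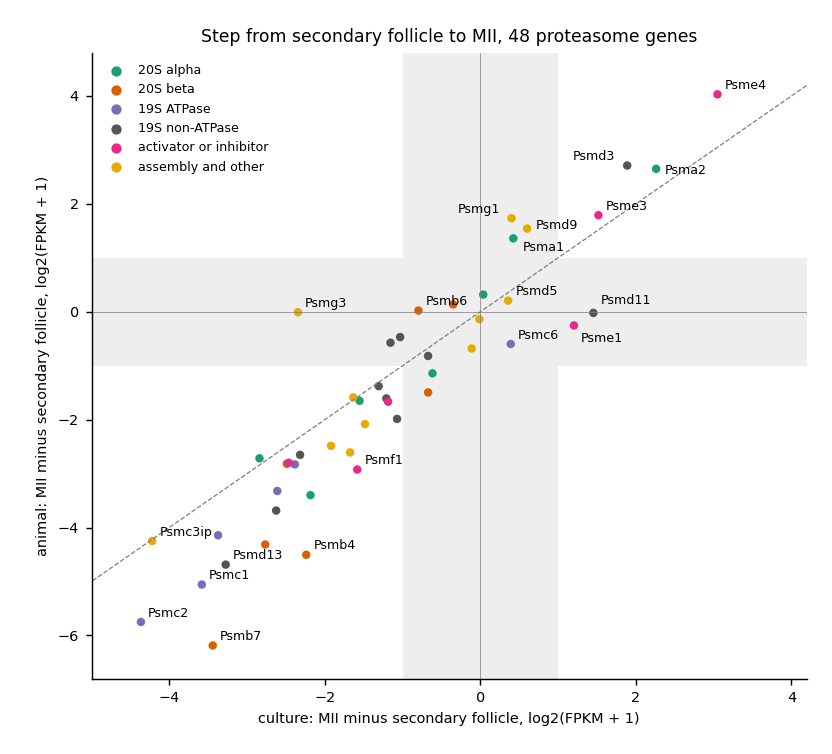
Difference between MII and secondary follicle oocytes on the log2(FPKM + 1) scale for the 48 genes, culture route on the horizontal and animal route on the vertical axis, coloured by role; grey bands mark differences under 2-fold and the dashed line marks equal differences. Psme4, Psma2, Psmd3 and Psme3 lie in the upper right, and most core and cap genes lie in the lower left, many of them below the line.

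At the first step of the culture route the shares of genes called were below those of all genes. Between ES cells and day 6 PGCLCs 4 of the 48 genes were higher (8.33%, background 9.63%), namely Psme2b (2.07), Psme2 (2.01), Psme1 (1.90) and the chaperone Psmg2 (1.26). Psme2b and Psme2 may share reads, so their calls may not be separate. The 3 lower genes (6.25%, background 12%) were Psma8 (-1.46), Psmb10 (-1.32) and Psme4 (-1.30). None of the 31 standard genes was called, and their median difference was -0.01. From day 6 to reaggregated PGCLCs none was higher (background 5.15%) and 2 were lower (background 5.04%), Psmb3 at -1.18 and Psme2 at -1.01. With equal sums 1 was higher, Psma8 at 1.23, and none lower, and after quantile normalization 1 was higher and 1 lower.

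Genes that control or assist the proteasome were taken from a list. Nfe2l1 encodes the factor that activates proteasome genes when proteolysis falls short, Ddi2 the protease and Ngly1 the glycanase that process it. Nfe2l1 had 58.4, 65.9, 51.4, 64.6 and 188 FPKM along the culture route and 53.9, 65.3 and 311 FPKM along the animal route. Ddi2 had 21.9, 14.8, 17.8, 66.7 and 535 FPKM along the culture route and 20.8, 49.2 and 683 FPKM along the animal route. Ngly1 had 1.98, 3.46, 4.86, 18.3 and 63.1 FPKM along the culture route and 5.26, 15.9 and 86.2 FPKM along the animal route. All 3 were highest at MII, where most subunit genes were lowest, and all 3 were called higher than in secondary follicles on both routes. The alternative scalings, such as equal sums, were run on the proteasome genes only. Whether the calls of listed genes outside the family hold under them was not tested. Of the 6 regulators on the list, 4 were higher and none lower at the cultured MII step, and 5 were higher and none lower in the animal. The background of this step was 23.9% higher and 28.6% lower in culture, and 28% higher and 33.1% lower in the animal. Akirin2, which brings proteasomes into the nucleus, had 59.2, 73.9, 57.3, 227 and 560.3 FPKM along the culture route and 56.3, 240.2 and 1142 FPKM along the animal route. Of the 10 particle and assembly genes outside the naming rule that the table held, 3 were higher and 1 lower at the cultured MII step. In the animal 3 were higher and 4 lower, beside the same background. The core chaperone Pomp had 176, 159, 113, 80.1 and 68.7 FPKM along the culture route and 124, 85.3 and 33.3 FPKM along the animal route.

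Among the shuttle factors that carry ubiquitinated proteins to the cap, and the unfoldase Vcp with its partners, 2 of 8 genes were higher and 3 lower at MII in culture (background 23.9% and 28.6%). In the animal 2 were higher and 5 lower (background 28% and 33.1%). The shuttle Ubqln1 had 53.3, 61.2, 57.9, 81.4 and 648 FPKM along the culture route and 66.02, 81.3 and 1430.2 FPKM along the animal route. Vcp had 19.1, 29.5, 27.3, 13.5 and 0.823 FPKM along the culture route and 32.0, 15.1 and 0.586 FPKM along the animal route. Ubqln1 was thus highest, and Vcp lowest, in the MII groups. Of 9 antigen processing and interferon genes 5 reached the filter. Tap1, the peptide transporter gene that overlaps Psmb9 on the other strand, was at most 0.891 FPKM, and Nlrc5, an activator of class I genes, at most 0.0772 FPKM. Irf1, an interferon response factor, had 11.7, 54.2, 28.4, 73.9 and 2.78 FPKM along the culture route and 28.2, 58.0 and 1.09 FPKM along the animal route, with its highest level in cultured secondary follicle oocytes, where Psmb8 was listed at 0 and Psmb9 at 0.0537 FPKM.

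**Figure D5:**
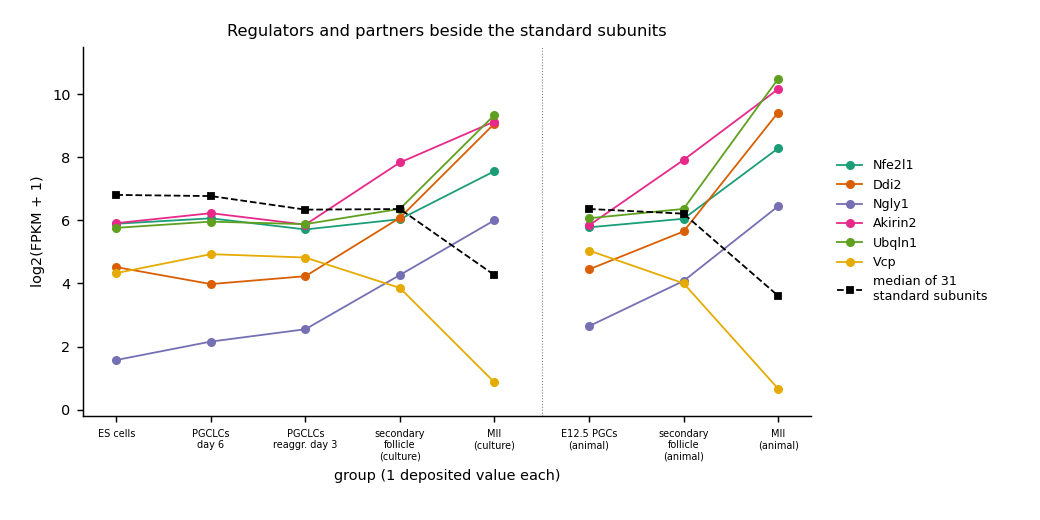
Levels of Nfe2l1, Ddi2, Ngly1, Akirin2, Ubqln1 and Vcp and the median of the 31 standard subunit genes (dashed black) on the log2(FPKM + 1) axis in the 8 groups; lines join the groups of a route. The median of the subunits and Vcp are lowest at MII, where the other 5 genes are highest.

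What the members share beyond their names was looked for in their promoters and in the ends of their messages. Promoters from 250 bases before to 50 bases after the start were matched for 42 of the 50 genes (45 entries), and motifs were searched on both strands. TGANNNNGC was in 57.8% of the 45 promoters, against 42.9% of the promoters of tested genes. The ETS core CCGGAAG was in 35.6% against 15.8%, and CCAAT in 33.3% against 37.8%. The interferon-stimulated element was in 11.1% against 2.78%, namely in the promoters of Psmb3, Psmd4, Psmd9, Psme1 and Psmg4. The interferon gamma-activated element TTCNNNGAA was in 6.67% against 6.91%. Each motif was counted on its own, so matches may overlap, and a match by letters is a description of the window.

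The 3′ ends were examined after the values were seen. Stored oocyte messages can gain poly(A) at maturation through the cytoplasmic polyadenylation element, searched here as TTTTAT or TTTTAAT in the last 100 bases of the 3′ untranslated region of 1 principal transcript per gene. The element was in 6 of the 48 genes, namely Psma1, Psma5, Psmb1, Psmb3, Psmg1 and Psmg3, and in 19.2% of all tested genes with such a region. It was in none of the 4 genes higher at MII on both routes and in 1 of the 26 lower ones (3.85%), where all genes had 34.9% and 8.82%. The median length of the 3′ untranslated region was 1184 bases (379 to 2171) for the 4 higher genes, 172 bases (44 to 3321) for the 26 lower ones and 978 bases for all genes. Among all genes it was 1368.5 bases for those higher at MII on both routes and 635 bases for those lower. Psma2, at 2171 bases, and Psme3, at 1665 bases, were the longest of the 4. Psma1, Psmg1 and Psmd9 were called higher at MII in the animal only, and Psmd9 has no such element. The call of Psmg1 (1.73) was lost after quantile normalization (0.70) and with equal sums (0.28), that of Psmd9 (1.54) likewise (0.33 and 0.08), and Psma1 changed sign as given above. The sites of Psma1 and Psmg1 are printed with the element in capitals, from the mouse genome GRCm38 (mm10) and the GENCODE annotation, on the strand of the gene, at chr7:114264651-114264680 (minus) for Psma1 and chr16:95979958-95979987 (minus) for Psmg1.
Psma1: atgtTTTTATatgaagaaaataagtgtctt
Psmg1: tgtaTTTTATtctggcttgggatgttttga
The element starts 71 bases from the end of the message in Psma1 and 51 bases from it in Psmg1. Its part in the levels of these genes was not tested.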

How the data were processed

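Expression was measured by sequencing of poly(A)+ RNA in directional libraries. The values are FPKM as deposited by the authors, 1 per gene and group for 8 groups. Per the submitters' processing notes the tools were TopHat2, Bowtie2 2.0.13, Cufflinks and Cuffdiff 2.2.1 with the mouse build mm10. The sources used here do not give how the samples of a group were combined, nor whether the counting used strand.

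Values were set to log2(FPKM + 1), and the 14242 genes that reached 1 FPKM in any group were compared in 9 pairs of groups. With 1 value per group there was no test and no p-value; a difference of 1 or more was called. The members, their roles and the lists of other genes were chosen with earlier results of these data known. Every member is named. Those of special role and the highest and lowest of each ring or cap class in a comparison are given in all 8 groups, and the rest by range. Psmb8 and Psmb9, under the filter in every group, are the exception and are given by their highest level. The computation, in Python 3.11.15 with pandas 2.3.3 and NumPy 2.4.6, was tested on simulated data. The 7 alternatives were pseudocounts of 0.1 and 5 FPKM, a filter of 5 FPKM, no filter, quantile normalization, median centring and equal sums. Near-identical copies and overlapping exons were found with the GENCODE M21 annotation, of the same build. The copies had at least 95% identity over at least 50% of the coding length. Of the 50 genes 11 had such a copy, 4 shared exon sequence with another gene on their strand and 12 on the other strand. The list of ubiquitin and activating enzyme genes is not reported here.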

Additional observations from a re-analysis of the deposited data

How the results depend on the processing

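Of the differences of single genes over 9 comparisons and 7 alternatives, 2893 stayed on their side of the 2-fold threshold. Of these, 423 with the filter of 5 FPKM and 432 with no filter could not do otherwise. A filter changes only which genes are kept, so these say nothing about stability. Differences under the threshold were counted as staying whatever their sign. Psma1 at the MII step in culture, for example, went from 0.42 to -0.43 after quantile normalization. Of the rest, 59 no longer passed the threshold, 57 newly passed it, and 4 passed it on the other side of 0 from an uncalled value. Only 2 called values changed sign. Both were those of Psma1 between MII and secondary follicle oocytes of the animal, at -0.13 after quantile normalization and -0.11 with equal sums against 1.36. For cultured against animal MII oocytes, the 13 genes higher became 20 with a pseudocount of 0.1 FPKM, 5 with one of 5 FPKM, 8 after quantile normalization and 20 with equal sums, and the 3 lower became 1 under each of the last 2. From day 6 to reaggregated PGCLCs, where 0 were higher and 2 lower, 1 was higher with a pseudocount of 0.1 FPKM, after quantile normalization and with equal sums. There 1 was lower with a pseudocount of 5 FPKM, after quantile normalization and after median centring, and 0 with equal sums. At the MII step in culture equal sums left 3 of the 6 higher and took the median from -1.26 to -1.99. At the MII step in the animal equal sums left 3 of 7 higher and took the median from -1.60 to -2.84, and quantile normalization left 1 higher. With equal sums the median of all genes at that step was -0.74, against -0.09. The cause was not tested. No paired analysis was possible because the table holds 1 value per group and its columns carry no replicate number. For the same reason no replicate could be left out. Depth is unknown, so its part in values near 0 is unknown.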
